A study of Homo sapiens with 6 samples.

Results

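The genes described are 10 members of the BCL2 family, which decides whether a cell survives or dies through its mitochondria, in WPMY-1 cells with lowered CAVIN1. They were taken by name from the deposited table of 33117 gene rows, and all 10 were found and passed the filter on low values: the survival genes MCL1, BCL2L1, BCL2L2 and BCL2, the pore-forming BAK1, and the BH3-only genes BID, PMAIP1, BCL2L11, BIK and BMF. WPMY-1 is an established line of human normal prostate stromal cells, known to have been immortalised with the large T antigen of SV40, a protein that binds p53. The shCAVIN1 group (3 libraries) carried a lentiviral short hairpin RNA against CAVIN1, a coat protein of caveolae, and the shCtrl group (3 libraries) carried the control plasmid pLKO1. All cells of both groups grew in DMEM with 5% serum, were transduced with virus packaged in HEK293T cells and were selected with puromycin. The labels speak of stable knockdown clones, and the series' design text of independent replicates, but neither says whether the 3 libraries of a group came from separate transductions or clones, so a p-value covers only the spread seen among the 6 libraries. A single hairpin was used, so an effect of lowered CAVIN1 and another effect of the hairpin cannot be told apart.

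Proteins of the BCL2 family meet at the outer membrane of the mitochondrion. BAK and BAX can open that membrane and release cytochrome c, which starts the caspases. The survival proteins MCL1, BCL-xL, BCL-w and BCL2 hold BAK, BAX and the BH3-only proteins in check, and the BH3-only proteins, which sense stress, bind the survival proteins or switch on BAK and BAX directly. In stromal cells the balance is known to respond to attachment, growth factors and stress.

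The hairpin target, shown because it defines the compared groups, lies in exon 2 of 2 of CAVIN1. Its position is chr17:42405221-42405241 on the minus strand (GRCh38, GENCODE transcript ENST00000357037.5). An exact match to all 21 bases was found in no annotated transcript of the 10 family members, and partial matches were not searched.
hairpin target: gtggaggttgaggaggttatt
CAVIN1, listed under its older symbol PTRF, stood at 141 ± 8.33 FPKM in shCAVIN1 and 336 ± 9.78 FPKM in shCtrl (SD, n = 3 each). FPKM scales the fragments of a gene to transcript length and to sequencing depth, so levels of different genes can be set side by side. All 9 stromal markers checked passed that filter, a mean of 0.5 FPKM over the 6 libraries, with VIM between 283 and 310 FPKM in shCAVIN1 and between 252 and 309 FPKM in shCtrl. Among 8 epithelial markers, KLK3 was listed at 0 in every library and EPCAM stayed at or under 0.567 FPKM, but the keratin KRT18 stood above 211 FPKM in every library. The epithelial markers summed to between 244 and 259 FPKM in shCAVIN1 and between 399.6 and 434 FPKM in shCtrl. By the limma test given below, 2 of the 3 tested were higher and 1 lower, beside 27.3% and 28.2% of all tested genes. The stromal markers summed to between 883 and 898 FPKM in shCAVIN1 and between 1432 and 1590 FPKM in shCtrl, with 1 higher and 5 lower. The 6 endothelial and immune markers summed to between 9.22 and 9.78 FPKM in shCAVIN1 and between 6.09 and 7.09 FPKM in shCtrl, nearly all of it CD68, with CD3E listed at 0 throughout. The part of these markers in the results was not tested. In shCtrl replicate 2 the abundant RNA RN7SK was listed at 0, against values between 106035 and 151555 FPKM in the other libraries. For the 10 members, the other family genes and the rows that overlap a member, log2 fold changes that this library moves by over 1.5 times are given with and without it.

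The knockdown cells held more transcript of 3 of the 4 survival genes and of BAK1, and less of 2 of the 5 BH3-only genes. MCL1 stood at 1.52-fold, BMF at 21.4% and BCL2L11 at 65.3% of the shCtrl mean. In all, 4 of the 10 members were higher, 2 were lower (1 of them BMF, which was tested only because of its shCtrl level) and 4 did not pass the test (limma on log2(FPKM + 0.5), Benjamini-Hochberg adjusted p under 0.05 over 13941 tested genes). Of all tested genes, 55.5% passed, 27.3% higher and 28.2% lower, so 6 of 10 is near the share of any genes and says nothing particular about the family. The median log2 fold change was 0.03 over the members and -0.02 over all tested genes (-0.005 over all tested genes without shCtrl replicate 2). For 6 of the 10 members, 4 higher and 2 lower, the groups were fully separate, against 64.6% of all tested genes (31.3% higher, 33.3% lower). In bulk RNA, fewer cells that express a gene and less of its RNA per cell cannot be told apart. When each library was rescaled to TPM, that is to the same column sum, 3412 genes passed and 64.4% of them were higher, against 49.2% of 7734 without rescaling.

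**Figure D1:**
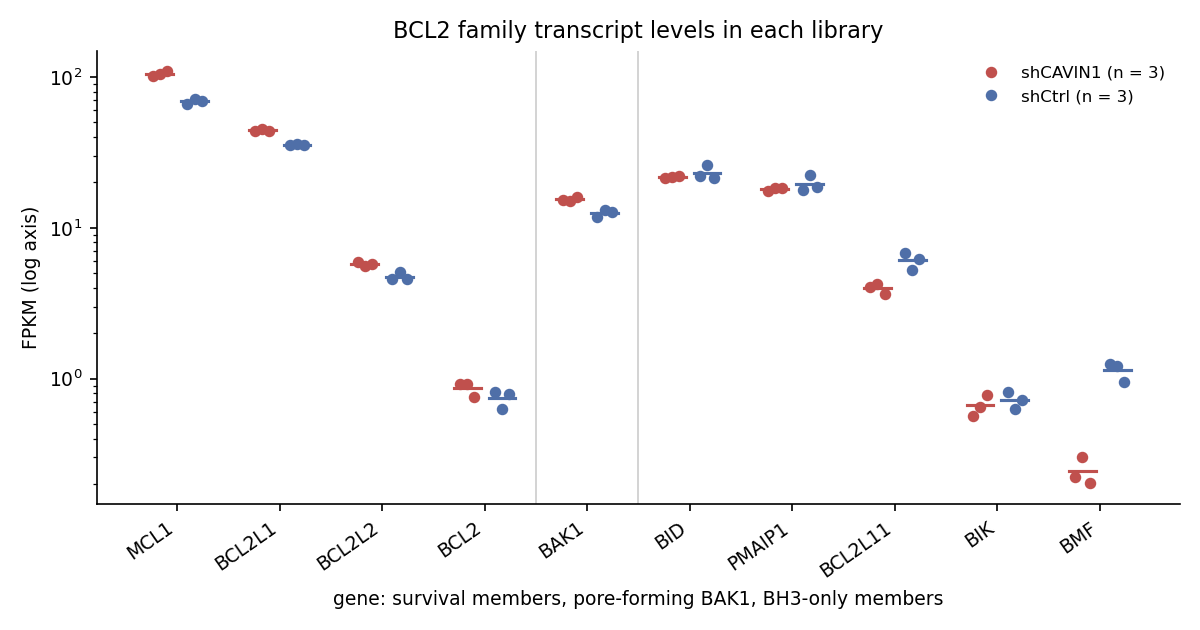
FPKM of the 10 members in each library on a log axis, shCAVIN1 (red, left of each pair) and shCtrl (blue, right), with bars at the means of 3 libraries. The groups separate for MCL1, BCL2L1, BCL2L2, BAK1, BCL2L11 and BMF and overlap for BCL2, BID, PMAIP1 and BIK.

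Among the survival genes, MCL1 was the most abundant and changed most. MCL1 (chr1:150574551-150579738, minus strand) encodes a short-lived survival protein that holds BAK and BIM. It stood at 101, 104 and 109 FPKM in shCAVIN1 replicates 1 to 3 and at 66.1, 71.3 and 69.0 FPKM in shCtrl replicates 1 to 3. Every shCAVIN1 library was above every shCtrl library. The means were 105 ± 4.01 and 68.8 ± 2.63 FPKM (SD, n = 3 each), 1.52-fold (log2 0.60, SE 0.0496, limma adjusted p = 0.000191). The call held under all 17 alternatives run, at log2 fold changes between 0.56 and 0.72. MCL1 shares 2 exonic bases with ADAMTSL4-AS1 on the same strand, which was higher too, at 2.83 ± 0.119 FPKM in shCAVIN1 and 1.78 ± 0.265 FPKM in shCtrl. An exact two-sided permutation test over the 6 libraries gave p = 0.1, the smallest that 3 against 3 allow, for each of the 6 members that passed.

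BCL2L1 (chr20:31664452-31723989, minus strand) encodes the survival protein BCL-xL and, by splicing, a shorter form that promotes death. Its levels were 43.6, 45.0 and 43.9 FPKM in shCAVIN1 and 35.2, 35.8 and 35.2 FPKM in shCtrl. The libraries lay close together within each group and did not overlap between them. The rise was 1.25-fold, or log2 0.32 (SE 0.0350, limma adjusted p = 0.000596). It shares 1424 exonic bases with the antisense RNA ABALON, not analysed here. The table gives a value per gene, so the long and short forms of BCL2L1, MCL1 and BCL2L11 cannot be told apart.

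BCL2L2 (chr14:23298790-23311759, plus strand) encodes BCL-w. It had 5.98, 5.62 and 5.72 FPKM in shCAVIN1 and 4.59, 5.07 and 4.59 FPKM in shCtrl, without overlap. The rise was 1.21-fold, or log2 0.26 (SE 0.0568, limma adjusted p = 0.00963). This value is uncertain, because 813 exonic bases of BCL2L2 are shared with BCL2L2-PABPN1, a readthrough gene on the same strand. BCL2L2-PABPN1 was listed at 28.7 ± 1.85 FPKM in shCAVIN1 and 28.4 ± 2.28 FPKM in shCtrl, above BCL2L2 itself, and did not pass the test (log2 0.02, SE 0.0748, limma adjusted p = 0.866), nor without shCtrl replicate 2 (log2 0.08). Its downstream partner PABPN1, at 14.6 ± 1.35 and 15.3 ± 0.862 FPKM in shCAVIN1 and shCtrl, did not pass either (log2 -0.06, and -0.02 without shCtrl replicate 2). PPP1R3E, which shares 206 exonic bases with BCL2L2 on the opposite strand, stood at 1.47 ± 0.0741 FPKM in shCAVIN1 and 1.36 ± 0.0868 FPKM in shCtrl. HOMEZ, which overlaps BCL2L2 without shared exonic bases, was lower at 71.6% of its shCtrl mean, a call lost after rescaling to TPM (adjusted p = 0.251).

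BCL2 itself (chr18:63123346-63320128, minus strand) was a rare transcript in these cells. It stood at 0.916, 0.915 and 0.754 FPKM in shCAVIN1 and 0.816, 0.625 and 0.791 FPKM in shCtrl. The groups overlapped and the gene did not pass (log2 0.13, limma adjusted p = 0.325). Without shCtrl replicate 2, its lowest shCtrl library, the log2 fold change of BCL2 was 0.06. With all libraries its 95% interval, from the fit on log2(FPKM + 0.5), ran from 0.918-fold to 1.31-fold. The added 0.5 FPKM narrows that interval for a gene this low, and even so it leaves room for a change of the size seen in BCL2L1. BCL2 levels were under 1% of the survival sum in every library, at 0.605%, 0.589% and 0.473% in shCAVIN1 and 0.764%, 0.554% and 0.722% in shCtrl.

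Summed over the 4 survival genes, the level was 155 ± 3.94 FPKM in shCAVIN1 and 110 ± 3.09 FPKM in shCtrl. MCL1 made up 66.7%, 66.8% and 68.4% of that sum in the shCAVIN1 libraries and 62.0%, 63.2% and 63.0% in the shCtrl libraries. BCL2L1 supplied 28.4% ± 0.747 of it in shCAVIN1 and 32.3% ± 0.634 in shCtrl. Within the survival genes the mixture therefore held a larger share of MCL1 in every shCAVIN1 library. The ratio of MCL1 to BCL2L1 was 2.32, 2.31 and 2.48 in shCAVIN1 and 1.88, 1.99 and 1.96 in shCtrl. Such ratios within a library do not change when a library is rescaled.

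**Figure D2:**
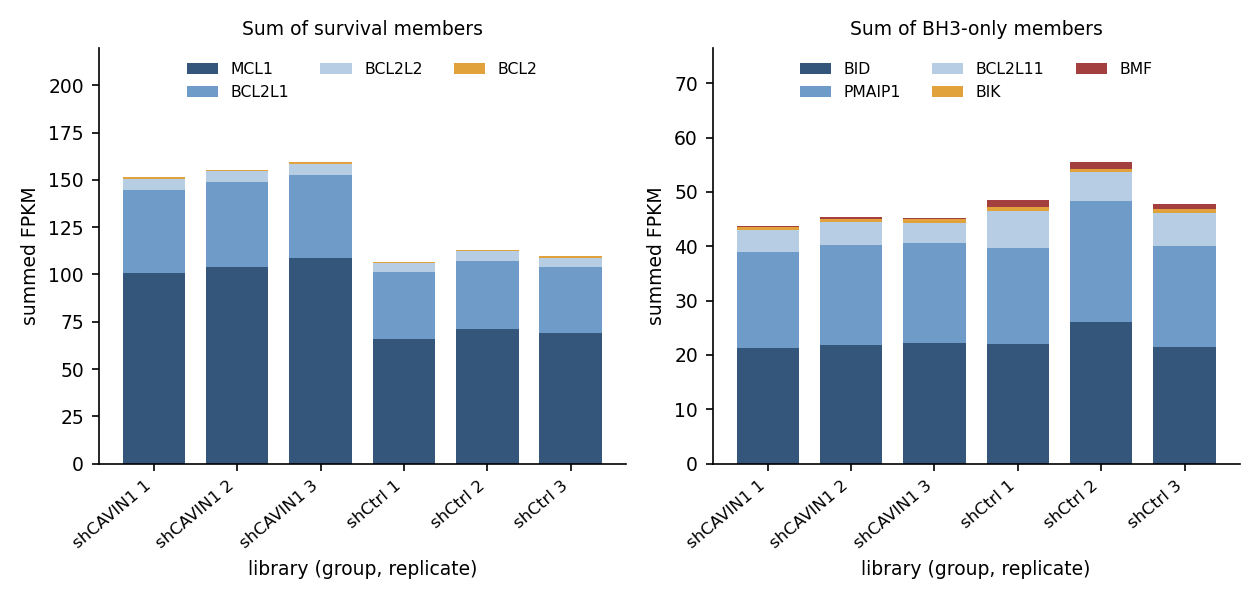
Summed FPKM by library, shCAVIN1 replicates left of shCtrl replicates, for the 4 survival members (left panel) and the 5 BH3-only members (right panel), with each gene as a part of the bar. The survival sums lie between 151 and 159 in shCAVIN1 and between 107 and 113 in shCtrl, and the BH3-only sums between 43.8 and 45.3 in shCAVIN1 and between 47.9 and 55.5 in shCtrl.

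BAK1 (chr6:33572547-33580293, minus strand) encodes BAK, which forms the pore in the outer membrane and is held by MCL1 and BCL-xL. It was at 15.3, 15.1 and 15.98 FPKM in shCAVIN1 and 11.7, 13.1 and 12.8 FPKM in shCtrl. All shCAVIN1 libraries were above all shCtrl libraries. The rise was 1.23-fold, or log2 0.29 (SE 0.0541, limma adjusted p = 0.00461). The ratio of BCL2L1 to BAK1 overlapped between the groups, at 2.86 ± 0.117 in shCAVIN1 and 2.83 ± 0.148 in shCtrl (exact two-sided permutation p = 0.8). The ratio of MCL1 to BAK1 was higher, at 6.76 ± 0.156 in shCAVIN1 and 5.49 ± 0.126 in shCtrl, without overlap. GGNBP1, a pseudogene that shares 91 exonic bases with BAK1 on the opposite strand, was listed at 0 except in shCtrl replicate 3 (0.0355 FPKM).

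Among the BH3-only genes, BMF had the largest fall. BMF (chr15:40087890-40108892, minus strand) encodes a protein that sits on the dynein light chain DYNLL2 and is known for its release when cells lose attachment. It stood at 0.223, 0.304 and 0.202 FPKM in shCAVIN1 and at 1.25, 1.21 and 0.950 FPKM in shCtrl. The lowest shCtrl library was above 3 times the highest shCAVIN1 library, but all 6 values are low. On the log2(FPKM + 0.5) scale the difference was -1.14 (SE 0.117, limma adjusted p = 0.000432). BMF passed the filter, a mean of 0.5 FPKM over all libraries, only through its shCtrl values, so it had to differ between the groups to be tested at all, and its p adds no support beyond the values themselves. Its fold change depends on the pseudocount, at -1.85 with 0.1 FPKM and -0.78 with 1 FPKM, and the call held with both. With a filter at a mean of 2 FPKM the gene was not tested. BMF-AS1, an antisense RNA that shares 461 exonic bases with BMF, was not analysed here.

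BCL2L11 (chr2:111119378-111168447, plus strand) encodes BIM, which binds all the survival proteins. Its levels were 4.03, 4.24 and 3.64 FPKM in shCAVIN1 and 6.76, 5.27 and 6.20 FPKM in shCtrl. The groups did not overlap, and shCtrl replicate 2 was the nearest of its group to shCAVIN1. The mean was 65.3% of the shCtrl mean (log2 -0.55, SE 0.0996, limma adjusted p = 0.0042), and log2 was -0.64 with shCtrl replicate 2 left out. The ratio of MCL1 to BCL2L11 was 25.03, 24.5 and 29.95 in shCAVIN1 and 9.78, 13.5 and 11.1 in shCtrl, 2.31-fold apart in their means.

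On the opposite strand, 727 exonic bases of BCL2L11 are shared with the long noncoding RNA MIR4435-2HG, listed under its synonym MIR4435-1HG. In mouse myeloid cells the counterpart of this RNA, Morrbid, is known to repress Bcl2l11. MIR4435-2HG stood at 127, 126 and 135 FPKM in shCAVIN1 and 95.2, 101 and 87.5 FPKM in shCtrl, so every shCAVIN1 library was above every shCtrl library. It rose 1.37-fold (log2 0.45, SE 0.0640, limma adjusted p = 0.00157), while BCL2L11 fell. The strand setting of the counting is not given in the sources used here, so fragments of the 2 genes cannot be told apart with certainty. MIR4435-2HG lost its call after rescaling to TPM (log2 0.57, adjusted p = 0.0592).

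The 3 other BH3-only genes did not pass the test. BID (chr22:17734138-17774770, minus strand), which CASP8 cuts to carry the death-receptor signal to the mitochondrion, stood at 21.3, 21.8 and 22.2 FPKM in shCAVIN1 and 22.0, 26.0 and 21.5 FPKM in shCtrl. PMAIP1 (chr18:59899948-59904306, plus strand) encodes NOXA, which binds MCL1 and speeds its breakdown, and had 17.7, 18.3 and 18.4 FPKM in shCAVIN1 and 17.7, 22.3 and 18.5 FPKM in shCtrl. In both genes the groups overlapped, with shCtrl replicate 2 as the highest library. Without that library the log2 fold changes of BID and PMAIP1 were 0.00 each, against -0.08 and -0.10 with all libraries (limma adjusted p = 0.4 and 0.389). The 95% intervals ran from 0.830-fold to 1.08-fold for BID and from 0.806-fold to 1.09-fold for PMAIP1. MIR3198-1, which overlaps BID without shared exonic bases, was listed at 0 in every library.

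BIK (chr22:43110748-43129712, plus strand) encodes a BH3-only protein of the endoplasmic reticulum. It was as rare as BCL2, at 0.565, 0.653 and 0.783 FPKM in shCAVIN1 and 0.818, 0.626 and 0.721 FPKM in shCtrl, with overlap (log2 -0.07, limma adjusted p = 0.638). Its 95% interval from the fit on log2(FPKM + 0.5), narrowed as for BCL2, ran from 0.789-fold to 1.15-fold. Without shCtrl replicate 2 its log2 fold change was -0.12. The ratio of MCL1 to PMAIP1, a pair of proteins that bind each other, was 5.72, 5.67 and 5.91 in shCAVIN1 and 3.74, 3.19 and 3.73 in shCtrl. That ratio did not overlap between the groups, although PMAIP1 itself did. The 5 BH3-only genes summed to 44.8 ± 0.865 FPKM in shCAVIN1 and 50.6 ± 4.22 FPKM in shCtrl, of which BID and PMAIP1 together were the larger part. Without shCtrl replicate 2, the highest library at 55.5 FPKM, the shCtrl mean of that sum was 48.2 FPKM. For each FPKM of the 4 survival members there was 0.289, 0.292 and 0.284 FPKM of the 5 BH3-only members in shCAVIN1. In shCtrl it was 0.454, 0.491 and 0.437 FPKM, with a mean of 0.446 without replicate 2. This is not the ratio of the whole family, because BH3-only genes outside the members are left out. BAD alone, at 79.6 ± 4.32 FPKM in shCAVIN1 and 65.7 ± 5.28 FPKM in shCtrl, stood above the 5-gene sum and was higher in shCAVIN1. BBC3, at 3.30 ± 0.298 and 5.33 ± 0.459 FPKM, was lower. No test is given for these sums, because the genes in them were chosen with earlier results of these data known. The same limit holds for the p-values of single members and of the ratio of BCL2L1 to BAK1.

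The order of levels was MCL1, BCL2L1, BID, PMAIP1, BAK1, BCL2L2, BCL2L11, BCL2, BIK and BMF in shCAVIN1, from high to low. In shCtrl it was MCL1, BCL2L1, BID, PMAIP1, BAK1, BCL2L11, BCL2L2, BMF, BCL2 and BIK. BCL2L11 thus stood below BCL2L2 in shCAVIN1 and above it in shCtrl, and BMF was the lowest member in shCAVIN1. Neighbours in the order whose libraries overlapped were BCL2 and BIK in both groups, and BID and PMAIP1 in shCtrl.

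**Figure D3:**
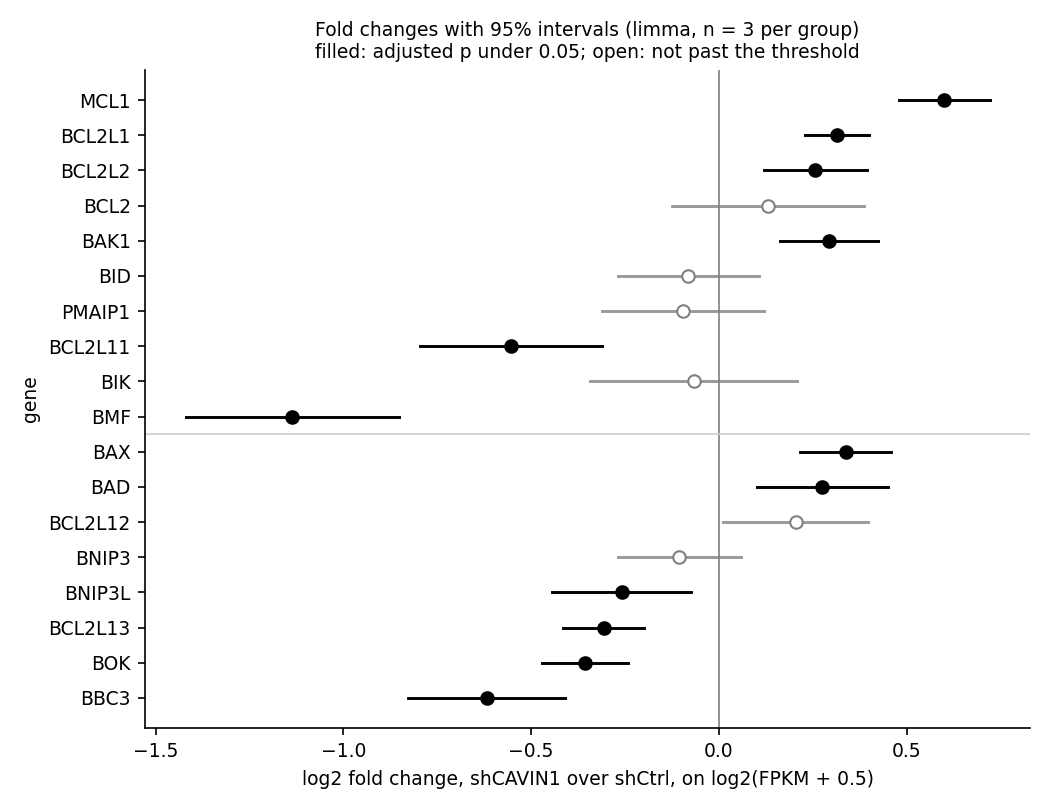
Log2 fold change of shCAVIN1 over shCtrl on log2(FPKM + 0.5) with 95% limma intervals (n = 3 per group) for the 10 members (above the line) and the 8 tested genes among 13 other BCL2 family genes (below it). MCL1 lies furthest to the right at 0.60 and BMF furthest to the left at -1.14, and open circles mark the 6 genes that did not pass.

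Of 13 other genes of the family, 8 were tested, and 2 were higher, 4 lower and 2 did not pass, with a median log2 fold change of -0.18. Over all tested genes, 55.5% passed (27.3% higher, 28.2% lower), with a median of -0.02. BAX, the second pore former, was higher at 58.6, 58.9 and 62.3 FPKM in shCAVIN1 against 45.0, 49.2 and 47.8 FPKM in shCtrl (1.27-fold, log2 0.34, SE 0.0499, limma adjusted p = 0.00186). The ratio of BAX to BAK1 was 3.87 ± 0.0427 in shCAVIN1 and 3.78 ± 0.0507 in shCtrl. BAD, a BH3-only gene whose protein growth factor signals hold inactive, rose 1.21-fold (log2 0.28, limma adjusted p = 0.0184). The call of BAD was lost without shCAVIN1 replicate 2 or 3 and without shCtrl replicate 1 or 3, at adjusted p between 0.0538 and 0.067.

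BBC3, which encodes the BH3-only protein PUMA, was lower at 3.37, 3.55 and 2.97 FPKM in shCAVIN1 against 4.95, 5.84 and 5.20 FPKM in shCtrl. Its mean was 61.9% of shCtrl (log2 -0.62, SE 0.0858, limma adjusted p = 0.00145), close to the fall of BCL2L11. BOK, a pore-forming relative of BAX and BAK, fell to 77.5% and BCL2L13, a mitophagy receptor, to 80.3% of their shCtrl means. BNIP3L, also a mitophagy receptor, fell to 83.1% (limma adjusted p = 0.0275). Its call was lost without any shCAVIN1 replicate and without shCtrl replicate 3, at adjusted p between 0.0518 and 0.0803. After rescaling to TPM none of the 6 other family genes that had passed did so, with adjusted p of 0.052 for BBC3. BNIP3, at 125 ± 0.695 FPKM in shCAVIN1 and 135 ± 11.7 FPKM in shCtrl, and BCL2L12, at 16.7 ± 1.53 and 14.4 ± 0.873 FPKM, did not pass. Without shCtrl replicate 2, BNIP3 had a log2 fold change of -0.04, against -0.11 with it, and BCL2L12 passed (limma adjusted p = 0.0489). BCL2L12 passed under 7 of the 17 alternatives run, that one included. BNIP3 passed under 1, quantile normalization (limma adjusted p = 0.0278).

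The 5 family genes below the filter were near the lower end of the table. BCL2A1, a survival gene known from blood cells, was listed at 0, 0 and 0.0287 FPKM in shCAVIN1 and 0.0919, 0.0767 and 0.111 FPKM in shCtrl. BCL2L10 was listed at 0 in all 3 shCAVIN1 libraries and in shCtrl replicate 3. HRK stood at 0.188, 0.273 and 0.198 FPKM in shCAVIN1 and 0.127, 0.139 and 0.179 FPKM in shCtrl. BCL2L14 and BCL2L15 stayed under 0.1 FPKM in every library.

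The machinery after and before the BCL2 family moved in both directions. Of 18 genes for the apoptosome, caspases and their inhibitors, 17 were tested, and 7 were higher, 7 lower and 3 did not pass (median log2 0.18), beside 55.5% passing over all tested genes, 27.3% higher and 28.2% lower. CASP8, the initiator caspase that cuts BID, stood at 3.29, 3.37 and 3.35 FPKM in shCAVIN1 and 7.28, 8.50 and 7.17 FPKM in shCtrl. It fell to 43.6% of shCtrl (log2 -1.08, SE 0.0722, limma adjusted p = 9.21e-05). APAF1, the scaffold that cytochrome c assembles into the apoptosome, fell to 52.9% of its shCtrl mean. ENDOG, a mitochondrial nuclease, rose by 0.46 on the log2 scale and the caspase inhibitor BIRC3 rose 1.98-fold at low levels, to 1.16 ± 0.0749 FPKM in shCAVIN1 against 0.584 ± 0.0311 FPKM in shCtrl.

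Of 12 death receptor and adaptor genes, 10 were tested, and 5 were higher, 2 lower and 3 did not pass (median log2 0.12), beside the same 55.5% over all tested genes. Receptors were among the higher genes: FAS rose 2.08-fold, the TRAIL receptor TNFRSF10B 1.49-fold, to 27.6 ± 0.634 FPKM in shCAVIN1 against 18.6 ± 0.290 FPKM in shCtrl, and the decoy receptor TNFRSF10D 1.42-fold. CFLAR, which blocks CASP8 at the receptor, fell to 57.3% of its shCtrl mean, at 6.67 ± 0.579 FPKM in shCAVIN1 and 11.6 ± 0.663 FPKM in shCtrl. BID, which joins this route to the mitochondrion, did not pass, as given above.

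Of 24 regulators and partners of BCL2 proteins, 7 were higher, 7 lower and 10 did not pass (median log2 0.07), a share near the 55.5% of all tested genes. FBXW7, part of a ubiquitin ligase that marks MCL1 for breakdown, fell to 74.0% of its shCtrl mean (limma adjusted p = 0.000836), a call lost after rescaling to TPM (adjusted p = 0.206). TRIM17, a ubiquitin ligase for MCL1 known from mouse neurons, was at 0.499 ± 0.141 FPKM in shCAVIN1 and 1.28 ± 0.0484 FPKM in shCtrl, and it too passed the filter only through shCtrl. The other ubiquitin ligase genes HUWE1, BTRC and MARCHF5 of the list did not pass. Their log2 fold changes were 0.34, 0.14 and 0.09 (limma adjusted p = 0.271, 0.0650 and 0.0899). The value of HUWE1 leans on shCtrl replicate 2, its lowest library at 11.9 FPKM, against 24.0 and 18.5 FPKM in shCtrl replicates 1 and 3. VDAC3, a channel of the outer mitochondrial membrane, rose 1.49-fold. FOXO3, a transcription factor known to activate BCL2L11 and BBC3, stood at 7.45, 7.06 and 6.81 FPKM in shCAVIN1 and 12.6, 9.98 and 11.8 FPKM in shCtrl (log2 -0.65, SE 0.0893, limma adjusted p = 0.00141). Its relative FOXO1, named after its values were seen, rose 2.34-fold, at 2.23, 1.79 and 1.97 FPKM in shCAVIN1 and 1.16, 0.597 and 0.803 FPKM in shCtrl (log2 0.90, SE 0.164, limma adjusted p = 0.00443).

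Promoter sequence was read from RefSeq (GRCh38.p14) as the 250 bases before a start site, for the members that passed the test and have an entry. RefSeq entries matched 7 of the 10 members, without BCL2L2, MCL1 and BIK. BMF and BCL2L1 have 2 entries each, of which the upstream one is shown. Windows are chr15:40108880-40109129 (minus strand) for BMF, chr2:111120664-111120913 (plus strand) for BCL2L11, chr20:31723964-31724213 (minus strand) for BCL2L1 and chr6:33580277-33580526 (minus strand) for BAK1. They are shown so that the promoters of the 2 members that fell can be read beside 2 that rose. Capitals mark a match to any of 5 motifs searched on both strands: FOXO (GTAAACA), STAT (TTCNNNGAA), E-box (CACGTG), CRE (TGACGTCA) and E2F (TTTCGCGC or TTTGGCGC).
BMF: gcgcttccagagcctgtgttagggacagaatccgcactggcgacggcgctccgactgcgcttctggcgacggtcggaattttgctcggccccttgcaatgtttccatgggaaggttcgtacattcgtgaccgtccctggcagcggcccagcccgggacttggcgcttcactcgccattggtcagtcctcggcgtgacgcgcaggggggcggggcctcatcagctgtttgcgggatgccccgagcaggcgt
BCL2L11: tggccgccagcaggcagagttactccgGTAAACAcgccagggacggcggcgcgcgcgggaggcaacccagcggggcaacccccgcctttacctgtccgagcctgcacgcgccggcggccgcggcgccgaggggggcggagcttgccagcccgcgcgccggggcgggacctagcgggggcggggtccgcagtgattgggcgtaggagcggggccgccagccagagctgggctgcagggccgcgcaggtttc
BCL2L1: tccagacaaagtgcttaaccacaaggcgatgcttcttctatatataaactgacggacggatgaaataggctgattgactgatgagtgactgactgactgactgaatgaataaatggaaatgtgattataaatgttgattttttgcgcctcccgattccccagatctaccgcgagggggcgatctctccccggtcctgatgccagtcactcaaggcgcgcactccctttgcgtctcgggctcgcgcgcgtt
BAK1: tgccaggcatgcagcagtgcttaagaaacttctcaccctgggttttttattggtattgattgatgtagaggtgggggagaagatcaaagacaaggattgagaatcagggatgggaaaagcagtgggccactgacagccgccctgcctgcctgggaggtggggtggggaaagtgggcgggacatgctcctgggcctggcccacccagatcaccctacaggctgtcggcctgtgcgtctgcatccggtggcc

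The only match in these 4 windows was a FOXO motif in BCL2L11, with its first base at -223 from the start site. Of 35116 RefSeq windows of the same length, 2.98% hold that motif. The other motifs were in 6.57% (STAT), 6.34% (E-box), 1.65% (CRE) and 0.968% (E2F) of windows, and no match says only that these letters are not in the window shown. The windows also differ in base composition, with 76.8% G and C in BCL2L11, 65.2% in BMF, 58.0% in BAK1 and the lowest share of the 4 in BCL2L1.

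**Figure D4:**
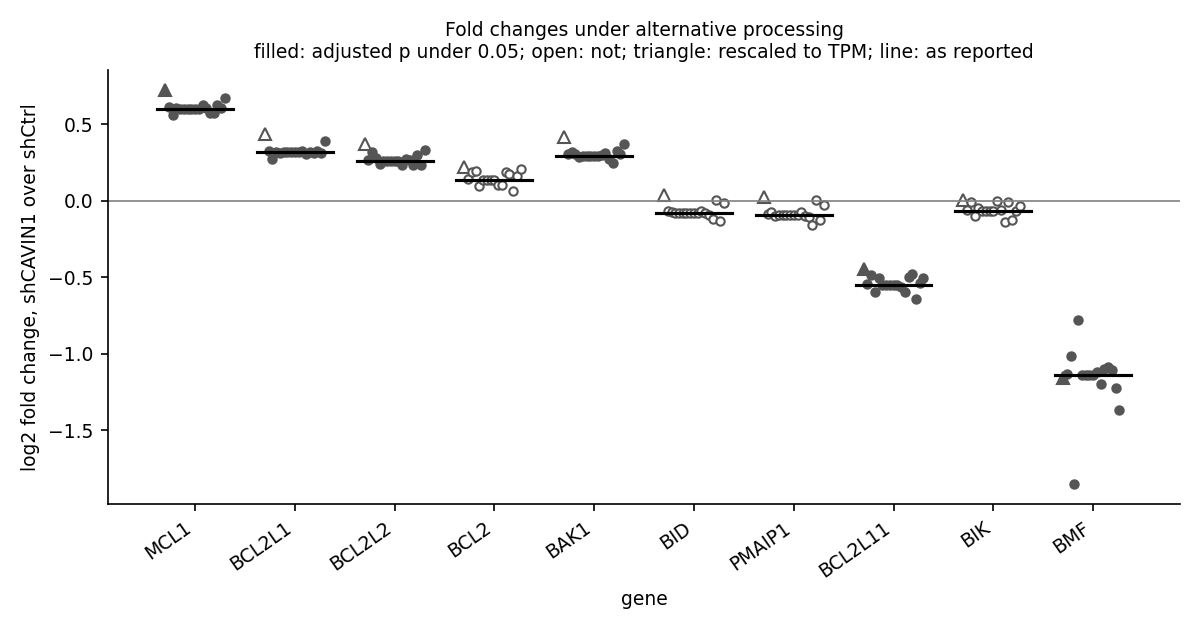
Log2 fold change of each member under 17 alternative ways of processing (points; triangles are the rescaling to TPM), with a line at the value as reported; filled points passed the test. MCL1, BCL2L11 and BMF stay filled wherever they were tested (BMF was not under the filter at 2 FPKM), BCL2L1, BCL2L2 and BAK1 are open only at the triangle, and BCL2, BID, PMAIP1 and BIK are open throughout.

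After rescaling to TPM, BCL2L1, BCL2L2 and BAK1 no longer passed, with adjusted p of 0.0863, 0.118 and 0.0894, although their log2 fold changes grew to 0.44, 0.37 and 0.41. In that rescaling the column sums hold RN7SK, listed at 0 in shCtrl replicate 2, and RN7SL2, listed at 149873 FPKM in shCtrl replicate 3 and at 0 in the other 5 libraries. When the 10 most abundant rows were left out of the sums, an alternative chosen after seeing the data, all 6 members passed again, with adjusted p of 0.000159, 0.00265 and 0.00132 for BCL2L1, BCL2L2 and BAK1.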

How the data were processed

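Total RNA of 6 libraries of WPMY-1 cells was sequenced after a stranded Illumina kit, per the labels' protocols. The authors deposited a table of FPKM values with 33117 rows. Per the submitters' processing notes, TopHat and TopHat2 (version written there as 2.2.5), CASAVA and bcl2fastq 2.17.1.14 were used with GRCh38. The quantifier, the annotation and the strand setting behind the FPKM values were each not given in the sources used here. Depth is unknown, so counting error cannot be given, and it weighs most on low genes. Column sums lay between 758837 and 1043840, and libraries correlated at r between 0.921 and 0.940 within and between 0.896 and 0.913 across groups (log2 values, tested genes).

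Genes with a mean of at least 0.5 FPKM (13941) were fitted by limma 3.58.1 (R 4.3.3) to log2(FPKM + 0.5), with group as the only term and a variance trend, with Benjamini-Hochberg adjustment and a threshold of 0.05. Log2 values understate changes of low genes, and folds and percentages are ratios of mean FPKM. Exact permutation tests used all splits of 3 against 3. Positions come from GENCODE 29. All 100 entries of the gene lists matched a row, through older symbols where needed. The members and lists were chosen with earlier results of these data known, which limits every p-value given for them. Named genes are the members, the other family genes, CAVIN1, rows that overlap a member, and in 3 further lists the 4 with the lowest adjusted p. The cell type markers, FOXO1, PABPN1, HUWE1, BTRC and MARCHF5 fall outside this rule. FOXO1, HUWE1, BTRC and MARCHF5 were added after their values were seen, and PABPN1 as the partner of the readthrough gene. The alternatives, tried 1 at a time, were scaling, pseudocount, filter, variance model, replicate block and leaving out each library.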

Additional observations from a re-analysis of the deposited data

How the results depend on the processing

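All 6 calls of members held, with their direction, under every alternative run except rescaling to TPM and, for BMF, the filter at 2 FPKM, which removes BMF, BCL2 and BIK from the test and leaves 1 lower member. Under TPM, 3 members passed, 1 of them higher, and 3412 genes in all, 2199 higher and 1213 lower; 0 other family genes, 5 apoptosome and caspase genes and 6 regulators passed. Leaving out 1 library in turn gave 6 members called each time, 6218 to 8468 genes (3064 to 4267 higher, 3154 to 4201 lower), 4 to 7 other family genes, 9 to 15 apoptosome and caspase genes and 9 to 14 regulators. The apoptosome count was 9 without shCAVIN1 replicate 2, and the regulator count was 9 without shCAVIN1 replicate 1 or 2 or shCtrl replicate 3. The direction of genes that did not pass turned under TPM for BID (log2 0.0380), BIK (0.00445), PMAIP1 (0.0232), BNIP3 (0.0167) and PABPN1 (0.0550; 0.00501 with the 10 most abundant rows left out), and the cause was not tested. With 1 library left out in turn, the log2 fold change ranged from -0.132 to 0.00321 for BID and from -0.161 to 0.00310 for PMAIP1, both highest without shCtrl replicate 2, from -0.0315 to 0.0781 for BCL2L2-PABPN1, and from -0.127 to 0.00200 for PABPN1. With the replicate number as a block, 7167 genes and the same 6 members passed. Deviations of same-numbered libraries correlated at 0.09, 0.07 and -0.03, and those of different-numbered libraries at between -0.15 and 0.08. No strong shared deviation by number was seen. With 3 libraries a group this cannot show whether same-numbered libraries were handled together. The median of all tested genes moved to 0.09 under TPM and 0.01 under quantile normalization. Precision is limited by 3 libraries a group and by the unknown depth behind BMF, BCL2 and BIK.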
